A study of Mus musculus with 80 samples.

Results

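Col20a1, Lsamp, 6030498E09Rik, Mipol1, Mfhas1, Col13a1, Cyp2c55 and Nol4 are 8 of the 22556 genes counted in chromatin-associated RNA (ChrRNA-seq, in which chromatin is isolated and the RNA bound to it is sequenced) of mouse embryonic stem cells. They were chosen by their measured difference in CPM upon loss of YTHDC1, being among the genes with the largest, so their YTHDC1 values are given as a description with no test, and tests are given only for other lines. The cells come from a cross of Mus castaneus and 129S mice and carry a TetOn promoter that induces Xist upon addition of doxycycline (Dox). In the degron lines the target protein carries an FKBP tag at its own locus and is lost upon addition of dTAG-13 (dTAG). The targets were METTL3 (clones G4 and H1 with an N-terminal tag, C3 and H5 with a C-terminal tag), YTHDC1 (clones Y9F and Y12H, each sequenced in 2 experiments), ZCCHC8 (Z4F and Z12H) and ZFC3H1 (8H and 11A). Another 4 lines were made in METTL3 clone H5 by adding GFP-METTL3, wild type (WT) or with the catalytic mutation D395A, to the Rosa26 locus, each a single clone sequenced in 2 experiments. WT_P2B3 and D395A_1F are XX cells, and WT_1A and D395A_9F are labelled XiO, that is, they have lost the 129S X chromosome. For every line there were untreated cells and cells given dTAG, 24 h of Dox, or 2 h of dTAG followed by 24 h of dTAG and Dox, which gave 80 libraries. For dTAG alone the sample titles give 26 h while the treatment field gives 2 h. The induced Xist lies on the Mus castaneus X in the METTL3, ZFC3H1 and transgene lines, but on the 129S X, which also carries a Bgl array, in the YTHDC1 and ZCCHC8 lines, so that a line's target and its parental line cannot be told apart in comparisons between those lines.

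m6A is a methyl mark on adenosines of RNA that is written during transcription by a complex whose catalytic subunit is METTL3. YTHDC1 is the nuclear protein that binds this mark, and it is known for roles in splicing, nuclear export and decay of RNA on chromatin. ZCCHC8 belongs to NEXT and ZFC3H1 to PAXT, which are complexes that deliver RNA in the nucleus to the exosome, where it is degraded. Lsamp encodes a neuronal cell adhesion protein of the IgLON family, Col20a1 a collagen of the fibril-associated (FACIT) type, Col13a1 a transmembrane collagen, Mfhas1 a leucine-rich repeat protein of the ROCO family, and Cyp2c55 a cytochrome P450 enzyme. Mipol1, Nol4 and the X-linked 6030498E09Rik are protein-coding genes with less well described products.

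Depth was 8.58 to 34.4 M reads per library (median 22.5), so that a single read was worth 0.0291 to 0.117 CPM (reads of a gene scaled to a common library total), and intervals from these reads would cover counting error only. All 8 genes passed the filter of a mean of at least 1 CPM in every table. The 8 stem cell markers Pou5f1, Nanog, Sox2, Klf4, Esrrb, Zfp42, Tfcp2l1 and Dppa5a summed to 788 to 2247 CPM per library, with Sox2 at 0 in all 80 libraries (it lies within Sox2ot on the same strand), while 10 fibroblast markers of the feeder cells summed to 2.53 to 23.9 CPM with Lum at 0 in 70 libraries. The METTL3 library of clone C3 with dTAG and Dox stood apart: genes that span under 3 kb took 4.57% of its reads, against 0.498% to 3.38% in the other 15 METTL3 libraries. The METTL3 changes of Lsamp, 6030498E09Rik, Col13a1, Mfhas1 and Mipol1 with Dox are given with and without this library. Other METTL3 results with dTAG and Dox include it, except where clone C3 is left out as a whole. The tag removes protein and not RNA, so the RNA of the targeted gene does not check the labels, and in these bulk libraries fewer cells of a type and less RNA per cell cannot be told apart.

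On GRCm38 (mm10), which the deposited tables use, Col20a1 was counted over chr2:180986535-181017540 (plus strand), Lsamp over chr16:41533342-42146213 (plus), 6030498E09Rik over chrX:38772780-38962688 (plus), Mipol1 over chr12:57230425-57457241 (plus), Col13a1 over chr10:61838498-61979108 (minus) and Cyp2c55 over chr19:39007019-39042687 (plus), and Mfhas1 and Nol4 are placed where they are described. Reads in exons, introns and untranslated parts of these spans were counted alike, on the gene's own strand. The Lsamp span is 613 kb of the 2197 kb that RefSeq gives the gene, namely its downstream part. All 8 genes span more than the median of 25.5 kb over the 13857 genes tested in the YTHDC1 and ZCCHC8 table, from 31.0 kb for Col20a1 to 613 kb for Lsamp. G and C bases make up 37.9% of the Mipol1 span, 38.3% of Nol4, 38.4% of Lsamp, 39.2% of 6030498E09Rik and 41.3% of Cyp2c55, against a median of 45.5%, and only Col20a1 (50.9%) and Col13a1 (51.0%) lie above it, Mfhas1 being at 45.2%. The Mipol1 span holds Prps1l3 on the same strand, so reads of the shared stretch cannot be assigned to either gene. Whether they were counted for Mipol1 was not tested. The markers Sox2 and Sox1, also overlapped by a same-strand gene, were at 0 in all 80 libraries. Gm16793 overlaps Mfhas1 on the opposite strand. Per kb of span, the median over 80 libraries was highest for Mipol1 (0.548 CPM per kb), followed by Mfhas1 (0.248), and lowest for 6030498E09Rik (0.0264), Nol4 (0.0262) and Lsamp (0.0149).

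RefSeq promoters (250 bases before to 50 after an annotated start, GRCm38.p6) are shown for 5 of the 8 genes, 5′ to 3′ on the gene's strand. The 3 genes that were higher without YTHDC1 (Col20a1, Lsamp, 6030498E09Rik) can thus be set beside a pair that was lower (Col13a1, Cyp2c55). Promoters of the other lower genes, Mipol1, Mfhas1 and Nol4, were left out, so the lower genes are covered only in part. Capitals mark CG dinucleotides. The Lsamp promoter shown is the one next to the counted span. Another Lsamp promoter, chr16:39984114-39984413, is not shown and has 12 CG dinucleotides and a CCAAT.
Col20a1, chr2:180986285-180986584, plus strand: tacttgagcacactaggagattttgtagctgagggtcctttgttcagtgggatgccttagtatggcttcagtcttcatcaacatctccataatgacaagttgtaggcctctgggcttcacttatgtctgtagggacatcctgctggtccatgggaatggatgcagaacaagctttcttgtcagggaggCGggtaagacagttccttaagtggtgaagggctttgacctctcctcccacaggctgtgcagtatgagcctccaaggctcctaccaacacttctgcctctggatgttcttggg
Lsamp, chr16:41532576-41532875, plus strand: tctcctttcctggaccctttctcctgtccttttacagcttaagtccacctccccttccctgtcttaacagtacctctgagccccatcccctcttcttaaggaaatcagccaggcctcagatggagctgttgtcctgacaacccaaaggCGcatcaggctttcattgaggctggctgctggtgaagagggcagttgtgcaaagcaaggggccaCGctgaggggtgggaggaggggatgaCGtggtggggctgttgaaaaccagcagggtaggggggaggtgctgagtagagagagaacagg
6030498E09Rik, chrX:38772530-38772829, plus strand: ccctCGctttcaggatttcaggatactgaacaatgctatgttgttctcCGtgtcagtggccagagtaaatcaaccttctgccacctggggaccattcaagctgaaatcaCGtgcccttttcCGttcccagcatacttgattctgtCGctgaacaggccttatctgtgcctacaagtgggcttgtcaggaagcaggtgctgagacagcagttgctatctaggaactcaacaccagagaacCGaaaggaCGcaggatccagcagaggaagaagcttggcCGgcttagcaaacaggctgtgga
Col13a1, chr10:61979059-61979358, minus strand: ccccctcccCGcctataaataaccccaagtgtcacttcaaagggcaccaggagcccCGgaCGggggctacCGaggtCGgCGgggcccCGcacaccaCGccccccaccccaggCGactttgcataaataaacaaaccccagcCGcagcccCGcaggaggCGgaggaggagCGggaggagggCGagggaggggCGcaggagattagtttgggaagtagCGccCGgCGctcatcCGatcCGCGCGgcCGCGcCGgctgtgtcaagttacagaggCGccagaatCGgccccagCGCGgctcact
Cyp2c55, chr19:39006769-39007068, plus strand: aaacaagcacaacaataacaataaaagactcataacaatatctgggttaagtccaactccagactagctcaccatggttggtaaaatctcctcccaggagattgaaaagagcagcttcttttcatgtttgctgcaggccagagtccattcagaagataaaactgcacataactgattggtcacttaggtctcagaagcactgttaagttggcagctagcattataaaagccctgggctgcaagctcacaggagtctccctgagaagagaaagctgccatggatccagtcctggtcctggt
The Col13a1 promoter has 29 CG dinucleotides, against 8 for 6030498E09Rik, 3 for this Lsamp promoter, 1 for Col20a1 and 0 for Cyp2c55, and the median over 32851 promoters is 7. TATAAA (searched on both strands) is present in Cyp2c55 (at -29 from the start) and Col13a1 (at -237) and in 13.6% of all promoters. Of the windows shown, CCAAT is present in Cyp2c55 (37.4% of all promoters) and CACGTG in 6030498E09Rik (7.15%). None of these letters, nor GGGCGG (35.7% of promoters), was found in the Col20a1 window or in the Lsamp window shown. The 3 genes that were higher share none of these motifs in the windows shown, which says nothing of the factors that bind such letters.

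Without YTHDC1, chromatin RNA of Col20a1, Lsamp and 6030498E09Rik was several-fold higher and that of Mipol1, Mfhas1, Col13a1, Cyp2c55 and Nol4 was lower, in both clones, both experiments and with or without Dox. These contrasts chose the genes. Experiment 1 shares its table with ZCCHC8 and experiment 2 has a table of its own, and the differences are of log2(CPM + 1) with each clone compared with itself.

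**Figure D1:**
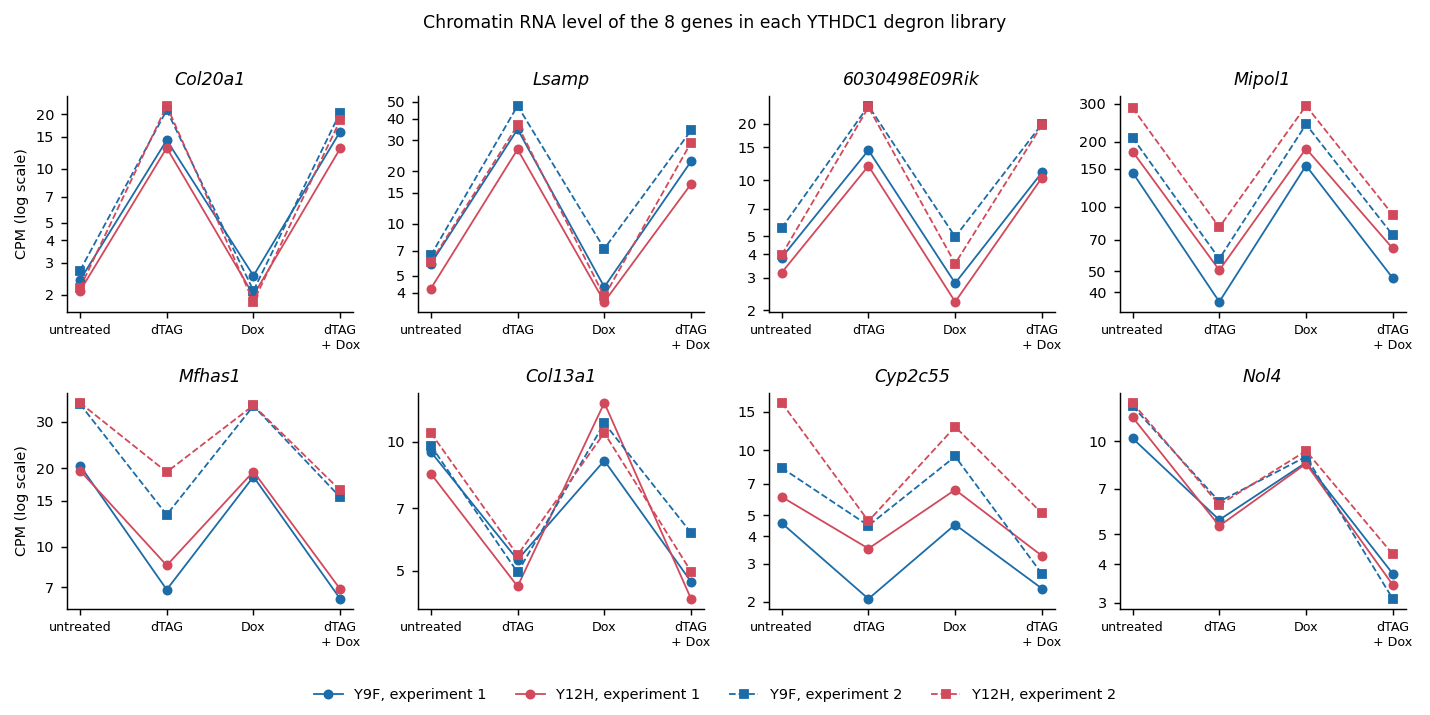
CPM (log axis) of each gene in the 16 YTHDC1 libraries by treatment, 1 line per clone and experiment (circles and solid lines experiment 1, squares and dashed lines experiment 2). Every line of the first 3 genes is higher with dTAG than without, and every line of the other 5 is lower, with and without Dox.

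Col20a1 was at 2.09, 2.41, 2.18 and 2.72 CPM in the untreated libraries (Y12H and Y9F of experiment 1, then Y12H and Y9F of experiment 2) and at 13.1, 14.4, 22.4 and 21.1 CPM with dTAG. With Dox it was at 1.98, 2.54, 1.82 and 2.10 CPM and with dTAG and Dox at 13.0, 16.1, 18.6 and 20.5 CPM. The groups do not overlap, and the fold ran from 5.98 to 10.3. Lsamp was at 4.23, 5.88, 6.01 and 6.57 CPM untreated and at 26.6, 34.7, 36.6 and 47.4 CPM with dTAG. With Dox, Lsamp was at 3.56, 4.33, 3.82 and 7.17 CPM, and with dTAG and Dox at 16.8, 22.7, 29.2 and 34.2 CPM. Its fold ran from 4.74 to 7.64 over these 8 pairs. 6030498E09Rik was at 3.19, 3.84, 3.97 and 5.52 CPM untreated against 11.9, 14.4, 24.6 and 25.01 CPM with dTAG. With Dox it was at 2.22, 2.80, 3.56 and 4.96 CPM against 10.3, 11.0, 19.7 and 19.9 CPM with both agents. Its fold was 3.73 to 6.18, and the libraries of experiment 2 held the higher levels with dTAG.

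Mipol1, the most abundant of the 8 genes per kb, was at 180, 144, 287 and 209 CPM untreated and at 50.6, 36.1, 80.1 and 57.2 CPM with dTAG. It was thus 2.91- to 3.99-fold lower in the 8 pairs, the Dox pairs included (186, 155, 294 and 241 CPM with Dox, and 63.9, 46.5, 91.6 and 73.7 CPM with dTAG and Dox). Mfhas1 (chr8:35587798-35679449, plus strand) was at 19.6, 20.4, 35.5 and 35.1 CPM untreated and at 8.49, 6.86, 19.3 and 13.3 CPM with dTAG. Levels of Mfhas1 were higher in experiment 2 in every treatment, and within each pair of a clone it was 1.84- to 2.98-fold lower. Col13a1 was at 8.42, 9.47, 10.5 and 9.79 CPM untreated against 4.60, 5.31, 5.44 and 4.96 CPM with dTAG, and was 1.78- to 2.86-fold lower over all pairs. Cyp2c55 varied most between clones before dTAG, at 6.09, 4.61, 16.5 and 8.29 CPM, and was at 3.52, 2.06, 4.71 and 4.49 CPM with dTAG, so that the lowest untreated clone lies among the depleted ones and the groups overlap. Nol4 (chr18:22693155-23038663, minus strand) was at 11.9, 10.2, 13.3 and 13.0 CPM untreated and at 5.31, 5.56, 6.22 and 6.37 CPM with dTAG. Cyp2c55 was 1.73- to 3.51-fold lower and Nol4 1.84- to 2.88-fold lower over the 8 pairs.

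Ranked by the size of the mean difference on the log2(CPM + 1) scale, Col20a1 and Lsamp were in the first 2 places in each experiment with and without Dox, 6030498E09Rik was between place 3 and 7, and Mipol1 between place 5 and 8 and the gene with the largest negative difference each time. The others lay further down, with Col13a1 at places 32, 161, 100 and 129 and Cyp2c55 at places 104, 150, 17 and 38 (experiment 1 with and without Dox, then experiment 2), among 13857 genes in experiment 1 and 13722 in experiment 2. The 8 genes are thus not the 8 largest differences of either experiment, and other genes lie between them.

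**Figure D2:**
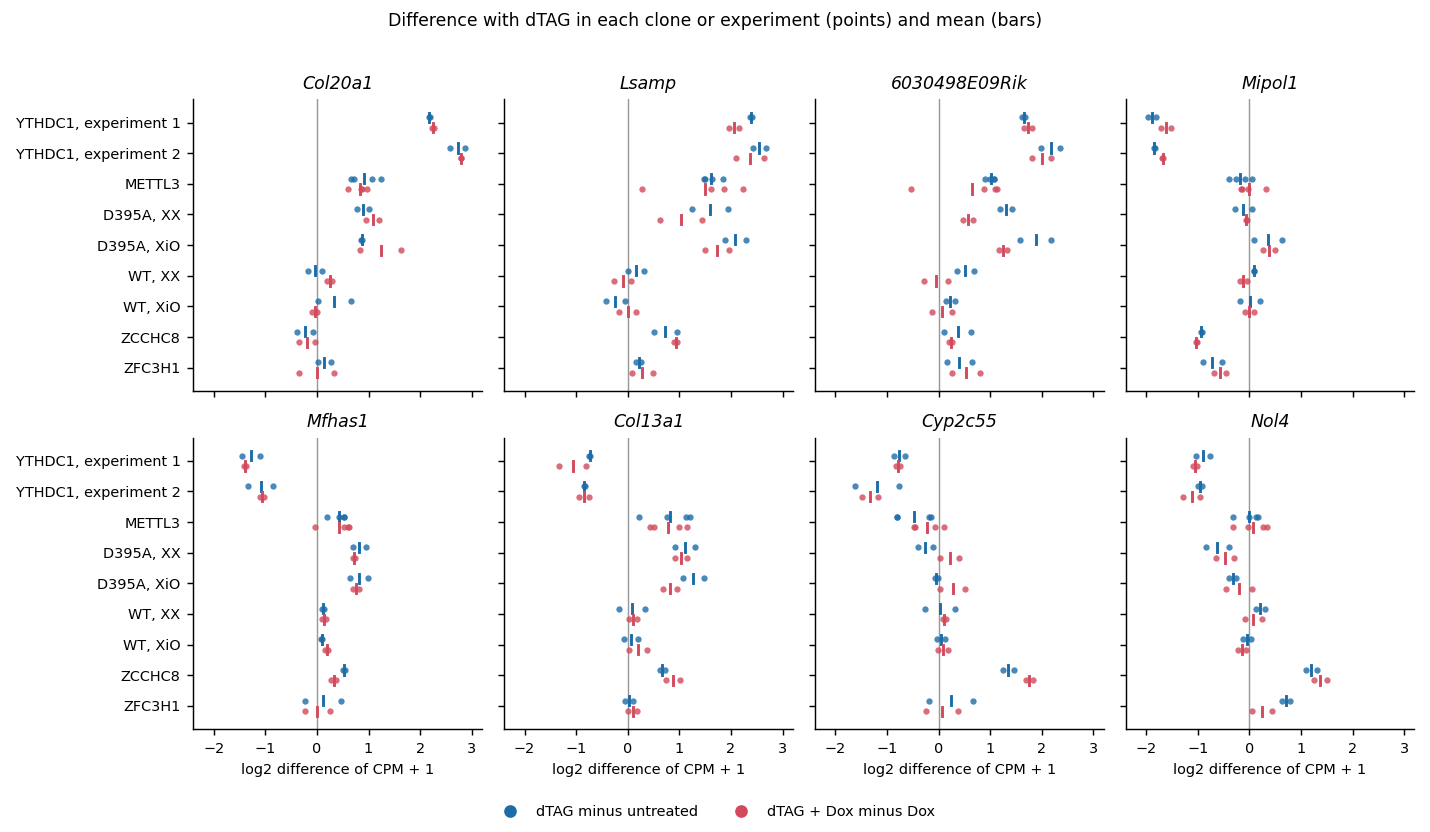
Difference of log2(CPM + 1) with dTAG in each clone (degron lines) or experiment (transgene lines), points, and their mean, bars, for the 8 genes in each line, without Dox (blue) and with Dox (red). Lsamp lies right of 0 in YTHDC1, METTL3, D395A and ZCCHC8 cells, while Mfhas1 and Col13a1 lie left of 0 in YTHDC1 cells and right of 0 in D395A and ZCCHC8 cells.

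Loss of METTL3 was compared next, to ask whether genes that differ without the m6A reader also differ without the writer. Without Dox, 5 of the 8 genes rose upon METTL3 depletion and 0 fell at an adjusted p under 0.05 (limma, Benjamini-Hochberg over 13367 genes, n = 4 clones), against 16.9% of all genes higher and 6.34% lower. With Dox, 3 rose and 0 fell, against 8.6% and 1.94%. Col20a1, Lsamp and 6030498E09Rik were higher as in YTHDC1 cells, but Col13a1 and Mfhas1, which were lower without YTHDC1, were higher without METTL3. The median change of all genes tested was 0.21 without Dox and 0.23 with Dox on the log2 scale, and that of the 8 genes 0.62 and 0.54. Changes rescaled to the median of autosomal genes (median-ratio scaling) are thus given beside those of the 8 genes that it alters. METTL3 changes of family genes, nearest genes and genes of similar pattern are given further on without this scaling. Whether their calls depend on it is not shown.

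**Figure D3:**
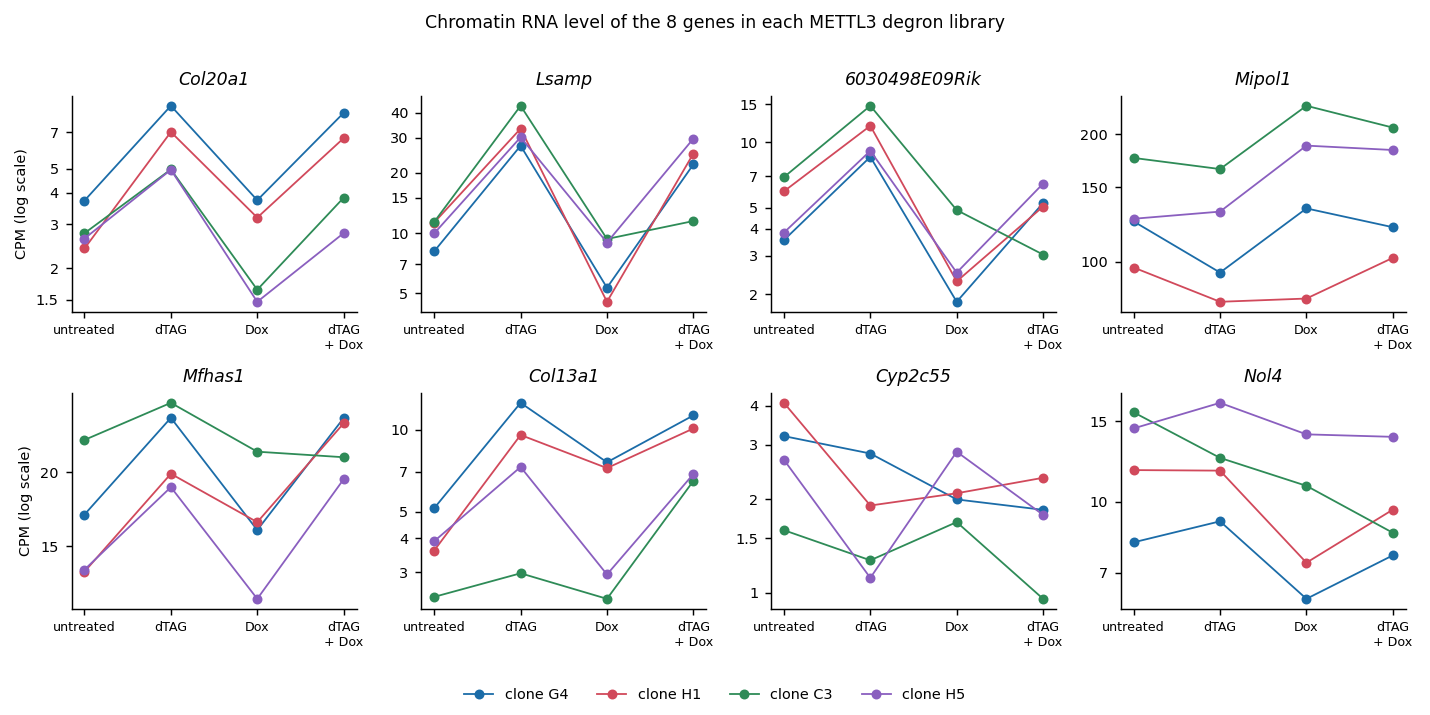
CPM (log axis) of each gene in the 16 METTL3 libraries by treatment, 1 line per clone. Lsamp and Col20a1 rise with dTAG in all 4 clones, and clone C3 with dTAG and Dox lies below the other clones for 6030498E09Rik and Lsamp.

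Lsamp was at 8.11, 11.3, 11.4 and 9.96 CPM in untreated G4, H1, C3 and H5, and at 27.3, 33.3, 43.3 and 30.1 CPM with dTAG. The groups do not overlap, and the log2 change was 1.62 ± 0.27 (SE, limma adjusted p = 0.00199, n = 4). With Dox it was at 5.33, 4.53, 9.34 and 8.96 CPM against 22.0, 24.96, 11.5 and 29.6 CPM with dTAG and Dox, a change of 1.50 ± 0.27 (SE, limma adjusted p = 0.00867). Clone C3 was the low one, with a difference of 0.27 against 1.84 in its own pair without Dox. Without the C3 library with dTAG and Dox, left out after seeing the data, the change of Lsamp with Dox was 1.87 (limma adjusted p = 0.000577).

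Col20a1 was at 3.73, 2.40, 2.76 and 2.63 CPM untreated against 8.91, 7.004, 4.96 and 4.95 CPM with dTAG, again without overlap. Its log2 change was 0.92 ± 0.17 (SE, limma adjusted p = 0.00345) without Dox and 0.83 ± 0.17 (SE, limma adjusted p = 0.0144) with Dox, where the levels were 3.74, 3.19, 1.64 and 1.47 CPM and then 8.35, 6.62, 3.83 and 2.76 CPM. 6030498E09Rik was at 3.55, 5.95, 6.93 and 3.84 CPM untreated and at 8.59, 11.9, 14.8 and 9.15 CPM with dTAG, a change of 1.01 ± 0.25 (SE, limma adjusted p = 0.0144) that was 0.80 and just missed the threshold after median-ratio scaling (adjusted p = 0.0567). With Dox it was higher in 3 clones and lower in C3 (4.88 CPM with Dox, 3.04 CPM with both agents), and the change of 0.64 did not pass (limma adjusted p = 0.109). Without that C3 library it was 0.98 and passed (limma adjusted p = 0.00752).

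Col13a1 was at 5.15, 3.5995, 2.43 and 3.89 CPM untreated and at 12.5, 9.55, 2.97 and 7.29 CPM with dTAG (log2 change 0.83 ± 0.21 SE, limma adjusted p = 0.0139). With Dox it rose by 0.77 ± 0.21 (SE, limma adjusted p = 0.0339), from 7.58, 7.22, 2.39 and 2.94 CPM to 11.3, 10.1, 6.48 and 6.86 CPM. The change with Dox was not called after median-ratio scaling (0.57, adjusted p = 0.059) or without the C3 library (0.64, adjusted p = 0.0961). Mfhas1 rose by 0.42 ± 0.14 without Dox (SE, limma adjusted p = 0.0493), from 13.6 to 22.7 CPM untreated to 18.9 to 26.2 CPM with dTAG, and the change was 0.19 (adjusted p = 0.387) after median-ratio scaling. With Dox Mfhas1 changed by 0.43 (limma adjusted p = 0.0664), or 0.57 (adjusted p = 0.0219) without the C3 library. Mipol1 and Nol4, both lower without YTHDC1, did not pass the test. Mipol1 had log2 differences of -0.17 without Dox and -0.01 with Dox. The 95% interval of Nol4 was -0.32 to 0.32 without Dox, and its difference with Dox was 0.07, or -0.16 after median-ratio scaling. Cyp2c55 was at -0.48 (limma adjusted p = 0.0658) without Dox, and at -0.64 (adjusted p = 0.0426) after median-ratio scaling. With Dox its change was -0.22 (adjusted p = 0.386).

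These calls rest on few clones. With Dox, 0 of the 8 genes were called when clone G4 or clone H5 was left out, as were 0 of all genes tested, and 3 of the 8 had an unadjusted p under 0.05 each time. Without Dox, 2 of the 8 genes were called without G4, without H1 or without H5, and the calls over all genes went down as well, to 7.93%, 14.3% and 6.34% of those tested in either direction.

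In the transgene lines the tagged METTL3 is lost upon addition of dTAG and GFP-METTL3 stays, either active (WT) or with the D395A change that removes its catalytic activity. All of Col20a1, Lsamp, 6030498E09Rik, Mfhas1 and Col13a1 were higher with dTAG in both D395A clones, in both experiments and with and without Dox. The share of all genes higher in each of these pairs was not computed. The median change of all genes in the D395A lines was 0.06 to 0.12. Mfhas1 was also higher with dTAG in both experiments of both WT lines, with mean differences of 0.09 to 0.19. The study's notes tie an experiment to a batch of cells divided among the treatments. How many of the D395A changes passed depends on whether experiment is a term in the fit. Without that term, 1 of the 8 genes in D395A XX cells (Mfhas1) rose with Dox and 1 (Mfhas1) without Dox, against 2.45% and 4.86% of all 13364 genes higher and 0.733% and 1.15% lower. In D395A XiO cells 0 were then called with Dox (4 at an unadjusted p under 0.05, 0 by edgeR) and 1 (Lsamp) rose without Dox, against 0.0521% and 0.342% of all 13448 genes higher and 0% and 0.0595% lower. With dTAG in the WT lines 0 of the 8 genes were called in any comparison by limma or by edgeR, 0 had an unadjusted p under 0.05, and 0% of all genes were called. With experiment as a term, 6 of the 8 genes were called in each D395A line with and without Dox, against 29.3% and 37.5% of all genes in either direction in XX cells and 31.1% and 34.4% in XiO cells, while in the WT lines 0 of the 8 (1 at an unadjusted p under 0.05, in XX cells without Dox) and 0% of all genes were called. In XX cells these were Col20a1, Lsamp, 6030498E09Rik, Mfhas1 and Col13a1, which rose, and Nol4, which fell (limma adjusted p at most 0.0225), and in XiO cells the same 5 and Mipol1, which all rose (limma adjusted p at most 0.0344). Marker sums moved with dTAG in these cells: in D395A XX cells the stem cell markers went from 1730 to 1739 CPM to 1313 to 1396 CPM and the fibroblast markers from 2.73 to 2.74 CPM to 4.84 to 4.90 CPM, and in D395A XiO cells the fibroblast markers went from 4.602 to 4.97 CPM to 5.52 to 6.07 CPM. Their part in the changes was not tested.

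**Figure D4:**
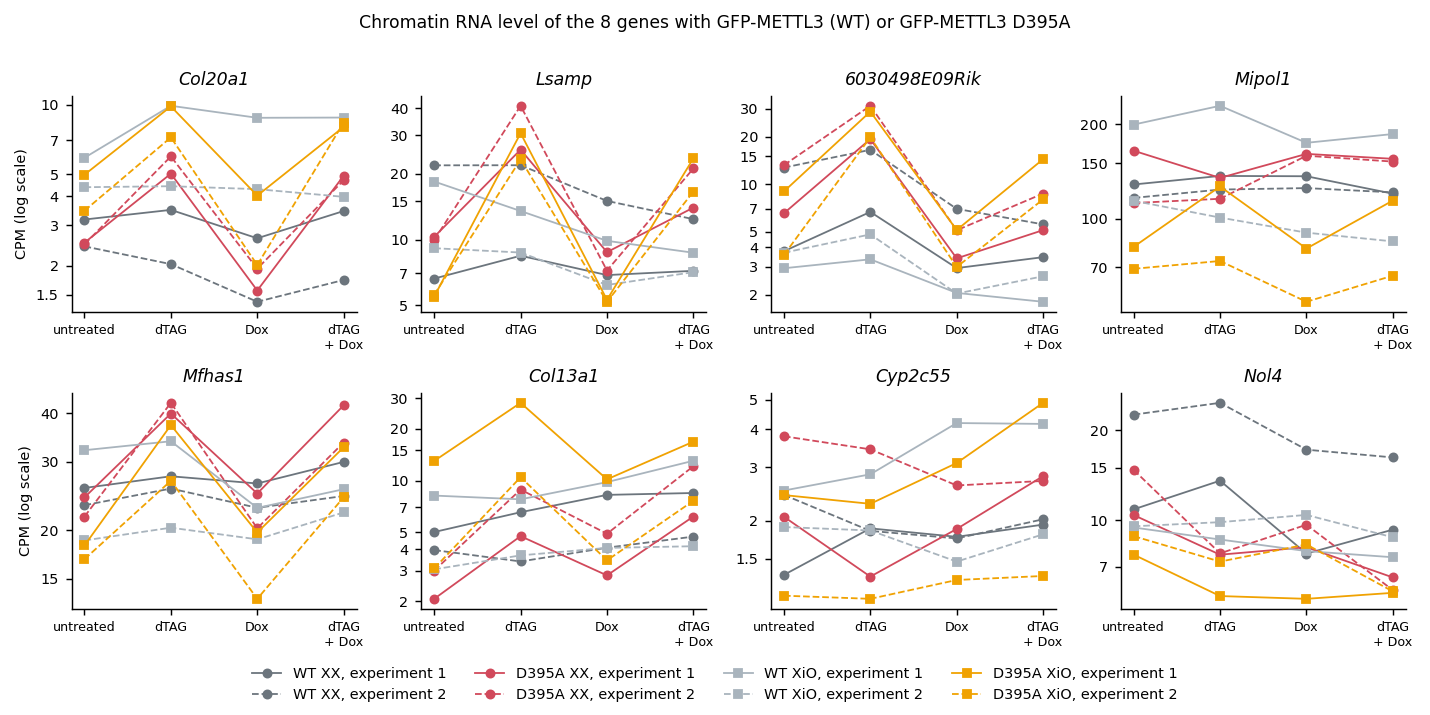
CPM (log axis) of each gene in the 32 transgene libraries by treatment, 1 line per clone and experiment (grey WT, red D395A XX, orange D395A XiO, circles XX, squares XiO, solid experiment 1, dashed experiment 2). In D395A cells Lsamp goes from 5.49 to 10.3 CPM untreated to 23.3 to 41.0 CPM with dTAG, while the WT levels of Lsamp are 6.63 to 21.9 CPM untreated and 8.44 to 21.9 CPM with dTAG.

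Lsamp was at 10.3 and 9.96 CPM (experiments 1 and 2) in untreated D395A XX cells and at 25.8 and 41.0 CPM with dTAG. In D395A XiO cells it was at 5.49 and 5.598 CPM and then at 30.7 and 23.3 CPM. In WT XX cells it was at 6.63 and 21.9 CPM and then at 8.44 and 21.9 CPM, and in WT XiO cells at 18.4 and 9.13 CPM and then at 13.5 and 8.73 CPM. The D395A levels with dTAG were above every other untreated or dTAG level of these lines. The log2 change without Dox was 2.08 ± 0.33 (SE, limma adjusted p = 0.0376, n = 2) in D395A XiO cells and 1.59 ± 0.55 (SE, limma adjusted p = 0.116) in D395A XX cells. With Dox it was 1.73 (adjusted p = 0.0736) and 1.03 (adjusted p = 0.393), and in WT cells all 4 changes lay between -0.24 and 0.15. With experiment as a term all 4 D395A changes of Lsamp passed (limma adjusted p at most 0.00142).

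Mfhas1 was at 24.3 and 21.7 CPM in untreated D395A XX cells and at 39.97 and 42.6 CPM with dTAG, a change of 0.82 ± 0.16 (SE, limma adjusted p = 0.014). With Dox the change was 0.72 ± 0.16 (SE, limma adjusted p = 0.0351), from 24.9 and 20.2 CPM to 42.0 and 33.6 CPM, and 0.65 (adjusted p = 0.0591) after median-ratio scaling. In D395A XiO cells Mfhas1 was at 18.3 and 16.8 CPM and then at 37.3 and 26.8 CPM with dTAG (change 0.82, limma adjusted p = 0.324). The WT changes of Mfhas1 were 0.09 to 0.19. Col13a1, which was at 2.06 and 3.003 CPM in untreated D395A XX cells and at 4.76 and 8.86 CPM with dTAG, differed by 1.11 in XX and 1.27 in XiO cells without Dox, and by 1.03 and 0.82 with Dox. Col20a1 differed by 0.89 and 0.87 without Dox and by 1.08 and 1.24 with Dox, and 6030498E09Rik by 1.31 and 1.88 without Dox and by 0.57 and 1.25 with Dox. Without experiment as a term none of these changes of Col13a1, Col20a1 and 6030498E09Rik passed the threshold (adjusted p from 0.0624 to 0.889), and with it all of them did (at most 0.0225).

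Nol4 was lower with dTAG in both experiments of D395A XX cells (10.4 and 14.8 CPM untreated, 7.68 and 7.76 CPM with dTAG, change -0.62, adjusted p = 0.447), and Cyp2c55 and Mipol1 differed by -0.26 to 0.39 in the D395A lines. Without experiment as a term, the test of the D395A change against the WT change called 0 of the 8 genes in XX and in XiO cells, with and without Dox, against 0.015% (with Dox, XX), 0.00748% (without Dox, XX) and 0% (XiO) of all genes in either direction. At an unadjusted p under 0.05 there were 1 and 2 in XX cells and 1 and 2 in XiO cells with and without Dox, and edgeR also called 0. Both experiments of a line are the same clone, and levels differed between experiments, with Col13a1 at 13.0 and 3.09 CPM in untreated D395A XiO cells. With experiment as a term, D395A differed from WT for 4 and 6 of the 8 genes in XX cells with and without Dox, against 12.1% and 16.3% of all genes, and for 3 and 4 in XiO cells, against 9.3% and 14.1%. Lsamp was among them in all 4 comparisons (difference of the changes 1.13 and 1.44 in XX and 1.73 and 2.32 in XiO cells, limma adjusted p at most 0.0192).

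Depletion of ZCCHC8 was measured in the same table as experiment 1 of YTHDC1, in lines of the same parental cells. Cyp2c55 and Nol4, lower without YTHDC1, rose more than any other of the 8 genes. With Dox, 5 of the 8 genes rose (Lsamp, Mfhas1, Col13a1, Cyp2c55 and Nol4) and 1 fell (Mipol1), against 25.2% of 13857 genes higher and 15.2% lower. Without Dox 6 rose, 6030498E09Rik being the added one, and Mipol1 fell, against 19.9% and 16.2%. The median change of the 8 genes was 0.60 with and without Dox, against 0.04 and -0.01 over all genes. Col20a1, which with Lsamp had the 2 largest differences without YTHDC1, differed by -0.19 and -0.23 and was not called.

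**Figure D5:**
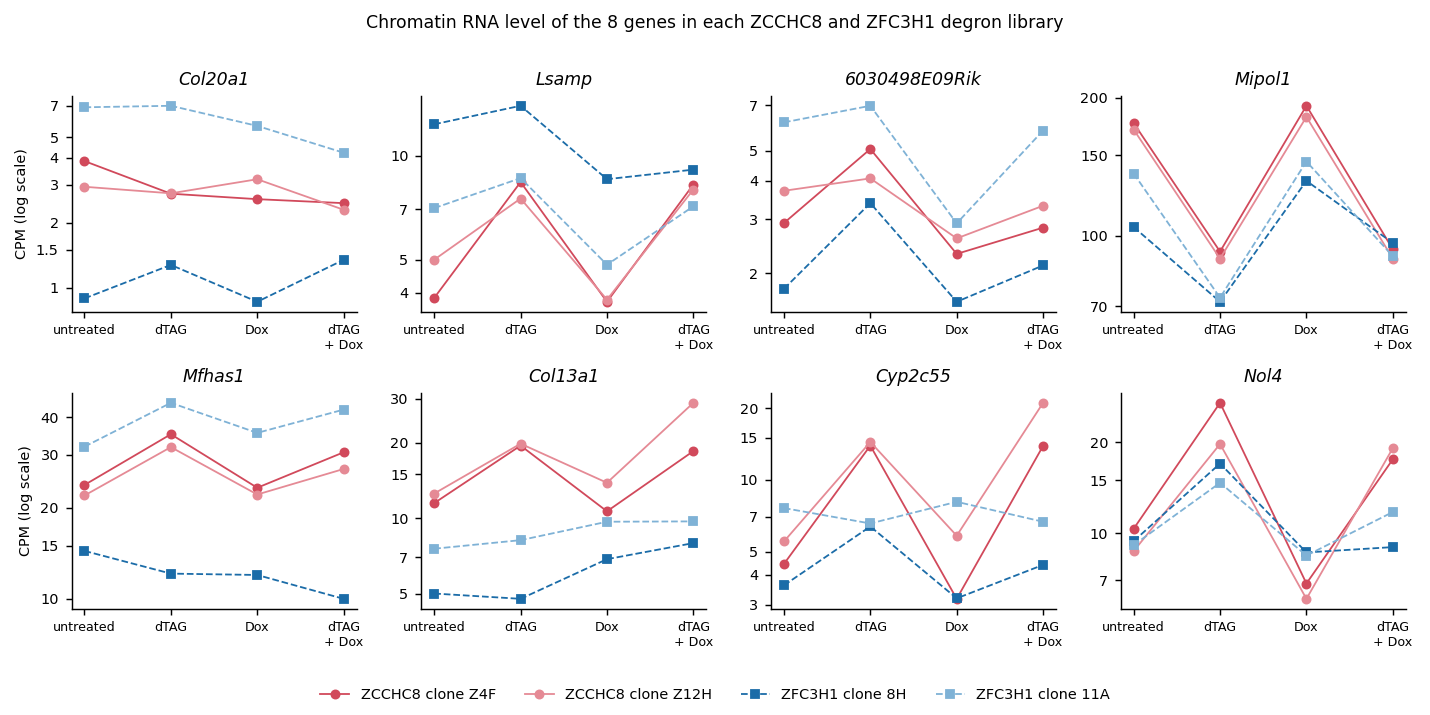
CPM (log axis) of each gene in the 8 ZCCHC8 libraries (red, circles) and the 8 ZFC3H1 libraries (blue, squares) by treatment, 1 line per clone. In ZCCHC8 cells Cyp2c55 goes from 4.44 and 5.52 CPM untreated to 13.9 and 14.4 CPM with dTAG and Nol4 from 8.74 and 10.4 CPM to 19.8 and 27.0 CPM, while Mipol1 goes down in both lines.

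Cyp2c55 was at 4.44 and 5.52 CPM in untreated Z4F and Z12H and at 13.9 and 14.4 CPM with dTAG, a log2 change of 1.35 ± 0.14 (SE, limma adjusted p = 2.24e-06, n = 2). With Dox it went from 3.17 and 5.83 CPM to 13.9 and 21.0 CPM (1.76 ± 0.14 SE, limma adjusted p = 9.82e-08). Nol4 was at 10.4 and 8.74 CPM and then at 27.0 and 19.8 CPM with dTAG (1.20 ± 0.12 SE, limma adjusted p = 1.98e-06), and with Dox at 6.83 and 6.08 CPM and then at 17.6 and 19.1 CPM (1.38 ± 0.12 SE, limma adjusted p = 3.17e-07). Both genes were higher without ZCCHC8 in both clones and lower without YTHDC1 in both clones of each experiment.

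Lsamp was at 3.87 and 4.99 CPM untreated and at 8.39 and 7.51 CPM with dTAG, a change of 0.73 ± 0.12 (SE, limma adjusted p = 0.00016), and changed by 0.93 ± 0.12 (SE, limma adjusted p = 1.13e-05) with Dox. Col13a1 was at 11.5 and 12.6 CPM and then at 19.5 and 19.8 CPM (0.67 ± 0.15 SE, limma adjusted p = 0.0024), and with Dox at 10.7 and 13.9 CPM and then at 18.5 and 28.9 CPM (0.88 ± 0.15 SE, limma adjusted p = 0.000199). Mfhas1 rose by 0.53 ± 0.09 without Dox (SE, limma adjusted p = 0.000327) and 0.32 ± 0.09 with Dox (SE, limma adjusted p = 0.0101), from 23.8 and 22.0 CPM to 35.1 and 31.8 CPM without Dox. 6030498E09Rik rose by 0.37 (limma adjusted p = 0.0388) without Dox, with differences of 0.63 in Z4F and 0.11 in Z12H, and changed by 0.23 (adjusted p = 0.173) with Dox. Mipol1 fell from 176 and 171 CPM to 92.3 and 89.1 CPM, a log2 change of -0.93 ± 0.06 (SE, limma adjusted p = 1.06e-08), and from 192 and 182 CPM to 93.3 and 89.1 CPM with Dox (-1.03 ± 0.06 SE, limma adjusted p = 2.59e-09). In the same table its YTHDC1 differences were -1.89 and -1.62.

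Summed levels of 8 markers of two-cell-like cells, a rare state in stem cell cultures, moved with these changes. The sum was 11.99 to 22.7 CPM in untreated and 10.9 to 24.5 CPM in Dox-treated ZCCHC8 libraries, against 43.3 to 85.5 CPM with dTAG and 57.5 to 96.0 CPM with dTAG and Dox. All 6 of the 8 markers that were tested rose. In experiment 1 of YTHDC1 the sum was 15.9 to 18.8 CPM untreated and 9.77 to 15.7 CPM with dTAG, in experiment 2 it was 7.84 to 9.50 and 4.59 to 8.51 CPM, and in METTL3 libraries it lay between 0.8 and 4.41 CPM. Sums of 6 primitive endoderm markers moved too, from 8.98 to 10.2 CPM untreated to 17.4 to 18.7 CPM with dTAG in ZCCHC8 cells and from 8.68 to 8.81 CPM with Dox to 14.2 to 16.7 CPM with both agents, with 1 of the 3 tested called higher. In YTHDC1 cells they went from 9.89 to 10.04 CPM to 13.6 to 14.5 CPM (experiment 1) and from 9.35 to 10.7 CPM to 12.9 to 13.2 CPM (experiment 2) without Dox. Sums of 6 neural markers were lower with dTAG in ZCCHC8 cells, at 471 to 501 CPM against 594 to 615 CPM, and with Dox at 372 to 386 CPM against 547 to 600 CPM. These sums are mostly Ncam1 and Map2 (medians of 417 and 148 CPM over 80 libraries). Pax6, Tubb3 and Neurod1 had medians of 4.28, 7.12 and 2.06 CPM, and Sox1 was at 0 in all 80. The part of these states in the changes of the 8 genes was not tested.

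Upon loss of ZFC3H1, Mipol1 fell with and without Dox and Nol4 rose without Dox. With Dox 1 of the 8 genes fell and 0 rose, against 0.62% of 13544 genes lower and 2.53% higher, and without Dox 1 fell and 1 rose, against 0.399% and 1.75%. Mipol1 was at 104 and 137 CPM in untreated 8H and 11A and at 71.7 and 73.2 CPM with dTAG, a change of -0.71 ± 0.11 (SE, limma adjusted p = 0.00738, n = 2). With Dox it went from 132 and 145 CPM to 96.4 and 90.2 CPM (-0.56 ± 0.11 SE, limma adjusted p = 0.0198). The groups do not overlap. Nol4 rose without Dox, from 9.43 and 9.15 CPM to 17.03 and 14.7 CPM (0.71 ± 0.16 SE, limma adjusted p = 0.0469), and with Dox was at 8.65 and 8.45 CPM and then at 9.01 and 11.8 CPM (0.24, adjusted p = 0.467). The other 6 genes had changes of at most 0.53 (6030498E09Rik with Dox, limma adjusted p = 0.195), and the clones differed in level, with Col20a1 at 0.892 CPM in untreated 8H and 6.87 CPM in untreated 11A. Mfhas1 was lower with dTAG in 8H (14.4 and 12.1 CPM) and higher in 11A (31.9 and 44.6 CPM). The call of each of the 3 changes was lost without a filter on low values (adjusted p from 0.0538 to 0.136).

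The 8 genes differed in the lines in which they moved. Lsamp was higher in YTHDC1 cells and rose in METTL3, ZCCHC8 and, without Dox, D395A XiO cells. 6030498E09Rik was higher in YTHDC1 cells and rose without Dox in METTL3 cells, where the call was lost after median-ratio scaling, and in ZCCHC8 cells. Col20a1 was higher in YTHDC1 cells and rose in METTL3 cells, while its change in ZCCHC8 cells had a 95% interval of -0.51 to 0.05 without Dox and -0.47 to 0.08 with Dox. Mipol1 was lower in YTHDC1 cells and fell in ZCCHC8 and ZFC3H1 cells, while in METTL3 cells its interval was -0.43 to 0.08 without Dox and -0.26 to 0.25 with Dox. Col13a1 and Mfhas1 were lower in YTHDC1 cells and rose in ZCCHC8 cells and in METTL3 cells, where Mfhas1 changed by 0.42 without Dox and 0.43 with Dox, of which the first was called, and not after median-ratio scaling. Mfhas1 also rose in D395A XX cells. With experiment as a term, Col20a1, Lsamp, 6030498E09Rik, Mfhas1 and Col13a1 rose in both D395A lines with and without Dox. With that term Nol4 fell in D395A XX cells and Mipol1 rose in D395A XiO cells. Cyp2c55 and Nol4 were lower in YTHDC1 cells and rose in ZCCHC8 cells, and Nol4 rose in ZFC3H1 cells without Dox. In METTL3 cells without Dox, Cyp2c55 was called lower after median-ratio scaling and was not called before it. Differences between the YTHDC1 values and those of other lines were not tested, because the YTHDC1 values chose the genes.

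Whether Xist induction altered the effect of depletion was tested as the change with Dox minus the change without Dox, in each line other than YTHDC1. In the 7 lines 0 of the 8 genes were called by limma or by edgeR and 0 had an unadjusted p under 0.05, against at most 0.238% of all genes (ZCCHC8, either direction). The smallest unadjusted p was 0.0557, for Cyp2c55 in ZCCHC8 cells (0.41 ± 0.20 SE, limma adjusted p = 0.544). By Dox without dTAG, 1 of the 8 genes was called in 1 line, Nol4, which fell in ZCCHC8 cells (-0.50 ± 0.12 SE, limma adjusted p = 0.0149), against 10.9% of all genes called there in either direction. With either clone left out the change was -0.46 (limma adjusted p = 0.133) and -0.54 (limma adjusted p = 0.0719), and calls over all genes were 4.33% and 5.15%. The lone clone is then assumed to vary as the YTHDC1 libraries of that table do. In the other lines 0 of the 8 were called, against 0.778% of all genes in METTL3, 1.11% in ZFC3H1, 0.00748% in WT XX, 0.232% in D395A XX, 1.17% in WT XiO and 0.58% in D395A XiO cells, and 2, 3, 0, 0, 0 and 0 of the 8 had an unadjusted p under 0.05. Compared within each clone and experiment, YTHDC1 included, Nol4 was lower with Dox than untreated in 19 of 20 pairs (median difference -0.40), Lsamp in 18 (median -0.34) and 6030498E09Rik in all 20 (median -0.41, range -1.22 to -0.09). 6030498E09Rik is the X-linked gene of the 8. Of 440 X-linked genes 50.7% were lower in all 20 pairs and of 12230 autosomal genes 0.736%. Shares of genes lower in at least 18 or 19 pairs were not computed, so the counts of Lsamp and Nol4 stand without one. The pairs are not independent, since each YTHDC1 and transgene clone enters with 2 experiments. None of the 8 genes has an allelic ratio in the deposited ratio tables, so the Xist-bearing allele could not be followed.

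Families of the 8 genes were examined next. Of the other IgLON genes, Negr1 rose in METTL3 cells by 1.09 without Dox (limma adjusted p = 0.0027) and 0.81 with Dox (adjusted p = 0.0228), Opcml rose there by 0.69 without Dox (adjusted p = 0.0234), and Ntm and Opcml rose in ZCCHC8 cells by 0.31 to 0.67. Of 3 other IgLON genes tested, 2 rose in METTL3 cells without Dox and 2 in ZCCHC8 cells with and without Dox, and 0 fell, which are too few genes to set against the shares of all genes given above. Of 10 other FACIT or transmembrane collagens tested in the ZCCHC8 table, 5 rose with Dox and 4 without Dox, against 25.2% and 19.9% of all genes, and 0 fell, against 15.2% and 16.2%, with Col19a1 at 0.72 and 0.81. In METTL3 cells 1 of 8 rose without Dox (Col9a2, 1.40, limma adjusted p = 0.0142) and 1 fell (Col25a1, -0.42, adjusted p = 0.0378), and 0 of 8 were called with Dox. Lrrk1, a ROCO kinase related to Mfhas1, rose in METTL3 cells (0.88 and 0.97 without and with Dox) and in D395A XX cells (1.56 and 1.72), and fell in ZCCHC8 cells with Dox (-0.49, limma adjusted p = 0.00489). Cyp2c66 rose in ZCCHC8 cells (0.70 and 0.61), and Cyp2c69 fell in METTL3 cells without Dox (-0.51, adjusted p = 0.0387). Nol4l, listed as 8430427H17Rik, rose in METTL3 cells (0.83 and 0.94) and fell in ZCCHC8 cells without Dox (-0.32, adjusted p = 0.0482). Of 19 genes of the m6A pathway, 4 rose and 2 fell in METTL3 cells without Dox, against 16.9% and 6.34% of all genes, and 2 rose and 3 fell in ZCCHC8 cells without Dox, against 19.9% and 16.2%. None of these list counts was tested against all genes.

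The nearest genes on either side of the 8 were followed too, of which 9 to 11 passed the filter in a table, and every call among them is given here. In METTL3 cells 2 of 9 rose and 3 fell without Dox, against 16.9% of all genes higher and 6.34% lower. With Dox 1 rose and 1 fell there, against 8.6% and 1.94%. In ZCCHC8 cells 3 rose and 2 fell without Dox, against 19.9% and 16.2%. With Dox 4 rose and 2 fell there, against 25.2% and 15.2%. In D395A XX cells 1 of 9 rose without Dox, against 4.86%. These counts were not tested against all genes, and the METTL3 changes are given without median-ratio scaling. Arfgap1, 4.01 kb upstream of Col20a1 on the same strand, was not called in METTL3 cells and fell by 0.27 in ZCCHC8 cells without Dox (limma adjusted p = 0.0148). On the sides of Lsamp, Igsf11, an immunoglobulin superfamily gene 2506 kb upstream, rose in METTL3 cells (0.98 and 0.67 without and with Dox) and in ZCCHC8 cells with Dox (0.47) and in D395A XX cells without Dox (1.14, limma adjusted p = 0.0274), while the growth cone gene Gap43, 102 kb downstream on the opposite strand, fell in METTL3 cells (-0.70 and -0.83). Upstream of 6030498E09Rik, C1galt1c1 fell in ZCCHC8 cells with Dox (-0.42). Beside Mipol1, which fell, Slc25a21 rose in ZCCHC8 cells (0.57 and 0.91). Beside Mfhas1, Eri1 fell in ZCCHC8 cells (-0.22 and -0.21), and beside Col13a1, H2afy2 rose in ZCCHC8 cells (0.45 and 0.30) and in METTL3 cells without Dox (0.63). Upstream of Cyp2c55, Hells fell in METTL3 cells without Dox (-0.30). Beside Nol4, Asxl3 rose in ZCCHC8 cells by 0.51 and 0.32 and fell in METTL3 cells without Dox (-0.46, limma adjusted p = 0.0258).

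Similarity over the 80 libraries was measured as Pearson's r of log2(CPM + 1) after subtracting the mean of each clone's 4 libraries, among 13690 genes. It is a description since the libraries share clones, depth and treatments. The YTHDC1 libraries, whose differences chose the genes, are among the 80. The r values and the genes found most alike thus follow in part from that choice, and co-regulation was not tested. 6030498E09Rik was most like Lsamp (r = 0.91), and Lsamp was most like Stxbp5l (r = 0.95) and Dok6 (r = 0.93). Stxbp5l rose in METTL3 cells by 0.94 and 0.82 (limma adjusted p = 0.0141 and 0.0416 without and with Dox). Col20a1 was most like Baat (r = 0.91) and Adcy10 (r = 0.89), and Baat, a bile acid conjugating enzyme gene, rose in METTL3 cells (0.75 and 0.84) and in D395A XX cells (1.29 and 1.13) and was not called in ZCCHC8 cells. These partners also differed with dTAG in YTHDC1 cells. In experiment 1 without Dox the differences were 1.89 for Baat, 1.71 for Adcy10, 0.996 for Stxbp5l and 1.21 for Dok6. Col13a1 and Mfhas1 had r = 0.75 with each other, and Cyp2c55 and Nol4 had r = 0.71. The nearest genes of Mipol1 were Bcl2 and Macrod2 (r = 0.78 each), of Mfhas1 Bai3 and Zfp936 (r = 0.82 each), of Col13a1 Cinp (r = 0.84) and Kcnn3 (r = 0.82), of Cyp2c55 4932412D23Rik and 1700028E10Rik (r = 0.75 each), and of Nol4 Ccdc85a (r = 0.80) and 2210408I21Rik (r = 0.79).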

How the data were processed

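ChrRNA-seq of 80 libraries was analysed from the 6 gene expression tables deposited by the authors. Per the study's methods, ribosomal RNA reads were removed with Bowtie2, the rest were aligned with STAR to an N-masked mm10 genome, unique alignments were counted by strand over whole transcript spans with featureCounts, and the authors deposited the values as CPM made with edgeR. CPM values were whole multiples of 1 read for 100.0% of values (tolerance 0.05 reads), so the read totals could be recovered. Reads carry no molecular identifiers. The 2 YTHDC1 experiments have the same column names and were told apart by their table, and 12 columns that belong to no sample here were not used. The deposited allelic ratio tables hold no row for the 8 genes and were not used. Starts in the tables count from 0 and are given from 1.

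Genes whose mean over the libraries of a table reached 1 CPM were tested on log2(CPM + 1), the pseudocount being 1, with limma 3.58.1 (R 4.3.3, lmFit and eBayes with a trend), over all libraries of a table and with Benjamini-Hochberg adjustment over all its genes (threshold 0.05). Log2 changes on this scale understate those of low genes. Clone was a term in the degron lines, since libraries with the same clone come from the same cell line (mean correlation of deviations within a clone 0.29 to 0.87). In the transgene lines experiment was a term in an alternative fit only, although the study's reporting notes say that the wells of a replicate came from 1 batch of cells and libraries of an experiment deviated together (mean correlation 0.57 to 0.88), so calls with that term are given beside those without it. The p-values measure the spread between clones of 1 culture each or, in the transgene lines, between experiments on 1 clone. This spread was pooled over all lines of a table. The ZCCHC8 tests thus also draw on the spread of the YTHDC1 libraries of experiment 1, whose differences helped to choose the genes. The D395A tests also draw on the spread of the WT libraries. Of 56 replicate pairs, 0 were identical and the smallest chi-square per degree of freedom between replicates was 7.60. The fit was also run on simulated counts with known changes, drawn without clone or experiment effects. The simulation thus does not bear on whether clone or experiment should be a term. Alternatives were median-ratio scaling, a pseudocount of 0.5, no filter on low values, edgeR 4.0.16 on the recovered reads, fits with or without the block, fits of a line's libraries alone, leaving out each replicate, and, chosen after seeing the data, leaving out the C3 library. Summaries and figures used Python 3.11.15, numpy 2.4.6, pandas 2.3.3 and matplotlib 3.10.9.

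The 8 genes and the gene lists were chosen with earlier results of these data known. Beside the 8, the text names the nearest gene on each side where it was called, genes of fixed family lists that passed the test in another line than YTHDC1, and the 2 genes most like each of the 8, as well as genes of the marker lists.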

Additional observations from a re-analysis of the deposited data

Results flagged for a closer look

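In METTL3 cells, clone C3 stood apart from the other 3 clones in its difference between dTAG with Dox and Dox alone. For 6030498E09Rik this difference was -0.54 on the log2 scale in C3 against 0.88 to 1.14 in the other clones, a gap of 0.848 of the whole range. For Mfhas1 it was -0.0297 against 0.53 to 0.63, a gap of 0.846 of the range. The limit for 4 samples is 0.829, chance exceeds it in about 1 in 20 groups, and 48 groups were examined.

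Each of the 8 genes was compared, with and without Dox, in every line other than YTHDC1. In 38 comparisons all clones or experiments of a line went one way and all YTHDC1 pairs the other. Every line but METTL3 had only 2 pairs, which can go the same way by chance. The share over all genes was not computed. The difference between the lines was not tested, and the YTHDC1 direction was fixed by the choice of genes. Values are mean log2 differences with dTAG in the other line. Col20a1 was at -0.19 with Dox and -0.23 without Dox in ZCCHC8 cells, and Mipol1 at 0.39 and 0.36 in D395A XiO cells. Mfhas1 with Dox was at 0.32 in ZCCHC8, 0.72 in D395A XX and 0.76 in D395A XiO cells, and without Dox at 0.42 in METTL3, 0.53 in ZCCHC8, 0.82 in D395A XX and 0.82 in D395A XiO cells. Col13a1 with Dox was at 0.77 in METTL3, 0.88 in ZCCHC8, 0.10 in ZFC3H1, 1.03 in D395A XX and 0.82 in D395A XiO cells, and without Dox at 0.83 in METTL3, 0.67 in ZCCHC8, 1.11 in D395A XX and 1.27 in D395A XiO cells. Cyp2c55 was at 1.76 in ZCCHC8, 0.22 in D395A XX and 0.27 in D395A XiO cells with Dox, and at 1.35 in ZCCHC8 cells without Dox. Nol4 was at 1.38 in ZCCHC8 and 0.24 in ZFC3H1 cells with Dox, and at 1.20 and 0.71 without Dox. Of the 38, 10 were in the WT lines, where 0 of the 8 genes were called. In WT XX cells Mfhas1 was at 0.14 with Dox and 0.12 without Dox, Col13a1 at 0.10 and Cyp2c55 at 0.11 with Dox, and Mipol1 at 0.0885 and Nol4 at 0.21 without Dox. In WT XiO cells Mfhas1 was at 0.19 with Dox and 0.0892 without Dox, Col13a1 at 0.20 with Dox and Lsamp at -0.24 without Dox.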

How the results depend on the processing

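Of 28 called changes of the 8 genes, none changed direction under any alternative and 12 kept their call under every alternative run, namely Lsamp in METTL3 cells without Dox, Mfhas1 in ZCCHC8 cells without Dox, and Lsamp, Mipol1, Col13a1, Cyp2c55 and Nol4 in ZCCHC8 cells with and without Dox. When a ZCCHC8 clone is left out, the lone clone is assumed to vary as the YTHDC1 libraries of that table do. The YTHDC1 differences helped to choose the genes. A ZCCHC8 call kept in that way thus says nothing of the spread between ZCCHC8 clones. In METTL3 cells without Dox 5 genes were called, but 3 by edgeR, 2 without the replicate block of clone and 2 to 5 when 1 clone was left out. With Dox 3 were called, but 1 without that block and 0 to 3 when 1 clone was left out. In ZFC3H1 cells 1 and 2 were called with and without Dox, and 0 and 0 without a filter on low values or without the block. In D395A XX cells with Dox 1 was called, but 0 after median-ratio scaling, 0 by edgeR, 3 in a fit of that line alone, and without Dox 1 was called, but 4 in that line alone. In D395A XiO cells without Dox 1 was called, but 0 by edgeR and 0 in that line alone. With either experiment left out, 0 of the 8 were called in these 3 comparisons, as were 0 of all genes, so this says nothing of the 8. The replicate block of experiment gave 6 calls in each D395A line with and without Dox, and for D395A against WT 4 and 6 in XX and 3 and 4 in XiO cells with and without Dox, where 0 were called without it. Dox alone in ZCCHC8 cells called 1 gene, and 0 when either clone was left out, with a change of similar size. The causes were not tested.

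Changes that reversed were all uncalled. In METTL3 cells with Dox, Nol4 was at 0.07, but at -0.16 after median-ratio scaling, -0.15 by edgeR and -0.0167 to 0.20 when 1 clone was left out, and Mipol1 was at -0.01, but at 0.0108 without the C3 library and -0.12 to 0.0450 when 1 clone was left out. Without Dox Nol4 was at 0.00019 with a pseudocount of 0.5 and at -0.0584 to 0.10 when 1 clone was left out. In ZFC3H1 cells with Dox, Mfhas1 was at -0.0034 after median-ratio scaling and Col20a1 at 0.0331 with a pseudocount of 0.5. When 1 experiment was left out, Mipol1 in D395A XX cells without Dox was at -0.29 to 0.0444 and Nol4 in D395A XiO cells with Dox at -0.46 to 0.0565. Leaving out a clone of ZFC3H1 leaves no spread to test against, and the clones then differed in sign for Cyp2c55 (-0.19 and 0.68 without Dox, -0.24 and 0.37 with Dox), Mfhas1 (-0.23 and 0.47, -0.24 and 0.25), Col20a1 with Dox (-0.34 and 0.34) and Col13a1 without Dox (-0.06 and 0.10). Alternatives on allelic ratios were not run. At 8.58 to 34.4 M reads, Col20a1 had as few as 12 reads and Cyp2c55 15 in a library, so small changes of these genes were not detectable.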
